A study of Arabidopsis thaliana with 28 samples.

Results

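The change between 1 h and 3 h of light was measured in cotyledons, the seed leaves, of dark-grown Arabidopsis thaliana seedlings as they turned green. It rests on 4 of the 28 libraries of the series, replicates A and B of cotyledons at 1 h and at 3 h, chosen by their labelled tissue and time. Seedlings of genotype Col-0, with no mutation or transgene in any group, were given 1 h of white light to start germination and then spent 3 days in darkness. The light that followed, a simulated white of 100 µmol m−2 s−1, came from LEDs emitting blue, red and a little far-red. Whole seedlings without roots were fixed in cold acetone, and the cotyledons were dissected together with the shoot apex, so that the samples also hold the shoot apical meristem. Poly(A) RNA was sequenced from 2 biological replicates per time, and the hypocotyls (embryonic stems) of seedlings given the same light for 1 h and 3 h served as the comparison tissue. The 1 h and 3 h seedlings also differ in age and time of day by the same interval, which cannot be told apart from the length of light.

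Light sensed by phytochromes and cryptochromes ends growth in darkness by turning off the COP1 ubiquitin ligase and the PIF transcription factors. Factors such as HY5 then accumulate and switch on genes for greening. The cotyledons change from organs that live on stored oil into photosynthetic leaves: plastids become chloroplasts, pigments and antenna proteins are made, sunscreen compounds accumulate, and the blade starts to expand.

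The values are FPKM (fragment counts divided by transcript length and by library size). A gene was called higher or lower where limma gave an adjusted p under 0.05 and the change on the log2(FPKM + 1) scale was at least 1. Only called genes are said here to have risen or fallen, and fold changes on this scale understate those of genes at low level. Of 18678 genes tested, 1915 differed between 1 h and 3 h (10.3%). These were 1021 higher (5.47%) and 894 lower (4.79%) at 3 h, and the median change over all genes was 0.02. The log2 change was 2 or more for 171 of the higher and 145 of the lower genes, and 4 or more for 8 and 11. The libraries of the 2 times did not overlap for 6939 genes that lay higher at 3 h (37.2%) and 6153 that lay lower (32.9%), so that lack of overlap alone marks little.

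The libraries were not of equal depth. Judged from the steps between low values, 1 FPKM of a 1500-nt transcript stood for about 11.1 reads in 1 h replicate A, 26.8 in 1 h replicate B, 24.3 in 3 h replicate A and 13.8 in 3 h replicate B. Chloroplast-encoded genes took 20.5% of the summed FPKM in 1 h replicate A, against 4.23%, 5.94% and 8.01% in the others in the same order. Of 95 chloroplast genes tested none rose and 2 fell, with a median of −0.54. Without 1 h replicate A the median was 0.91, and 2 rose and 1 fell. Without 1 h replicate B it was −1.97, and 0 rose and 31 fell, so the sign of this median turned on the 1 h library used. Replicates correlated at 0.965 (1 h) and 0.977 (3 h) across genes. In such whole-organ RNA, a lower value may mean fewer cells of a type or less RNA per cell, and these cannot be told apart.

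No marker of the shoot meristem and leaf primordia, vasculature or root was called, while 2 of 15 stomatal lineage genes rose. Of 9 tested genes of the shoot meristem and leaf primordia, 13 of vasculature and 3 of root, 0 were higher and 0 lower in each list. STM, which maintains the shoot meristem, had 6.75 and 6.32 FPKM at 1 h and 4.37 and 5.31 FPKM at 3 h. No seed storage gene of 13 passed the filter, and the highest value among them in the 4 libraries was 4.47 FPKM. STM lay in the same low range at both times, with no overlap between them (log2 change −0.37).

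Regulators of the first light response changed in both directions between 1 h and 3 h. HY5, a bZIP factor that promotes light-driven development, had 294 and 311 FPKM at 1 h and 146 and 159 FPKM at 3 h. Both 3 h libraries lay far below both 1 h libraries, but the change of −0.98 ± 0.11 (SE, adjusted p = 5.10e-07) stopped just short of the required size. HY5 passed it under quantile normalization (−1.06) and without 1 h replicate A (−1.02) or 3 h replicate B (−1.05). Its mean level was 82.5 FPKM in darkness and 55 FPKM at 6 h, so that the 3 h level lay between those at 1 h and 6 h. Of 15 HY5 and B-box genes, 2 rose and 4 fell.

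The B-box factors, zinc-finger proteins that act with or against HY5, moved in both directions. BBX32, a factor that inhibits HY5 activity, had 332 and 350 FPKM at 1 h and 102 and 110 FPKM at 3 h, from a mean of 0.578 FPKM in darkness. It fell 3.19-fold (log2 change −1.67 ± 0.152 SE, adjusted p = 3.19e-08), while in hypocotyls its change was −0.03, a difference between tissues that was called (−1.65). BBX28 had 98.7 and 92.4 FPKM at 1 h and 31.3 and 33 FPKM at 3 h. BBX29 had 43.2 and 49.6 FPKM and then 12.8 and 12 FPKM. Both of these single B-box genes fell, by 1.54 and by 1.82 on the log2 scale. BBX23, which carries a pair of B-boxes, also fell, by 1.39 from about 2 FPKM.

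BBX20 and BBX22, which like BBX23 carry a pair of B-boxes and which promote the light response together with HY5, went the other way. BBX20 had 10.5 and 7.84 FPKM at 1 h and 37.3 and 38.4 FPKM at 3 h, a rise of 1.95 ± 0.177 (SE, adjusted p = 3.20e-08). BBX22 had 13.7 and 14.3 FPKM and then 40.3 and 43.9 FPKM, a rise of 1.52 ± 0.117 (SE). For each gene the replicates lay close together, and the promoter of BBX20 held none of the motifs described below. The 8 tested repressors of photomorphogenesis held no called gene (0 higher, 0 lower), with a median of −0.32. COP1 itself had 44.3 and 54.9 FPKM at 1 h and 42 and 39.1 FPKM at 3 h.

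Among 16 photoreceptors and PIF factors, 2 rose and 1 fell. PHYA, the phytochrome that is most abundant in darkness, had 139 and 107 FPKM at 1 h and 54.9 and 52.7 FPKM at 3 h. It fell by 1.16, though without 1 h replicate A the change was −0.98 and below the required size. PIF7, a phytochrome-interacting factor active in shade, had 3.11 and 2.65 FPKM at 1 h and 13 and 13.3 FPKM at 3 h. PIF8 had 10.2 and 12.3 FPKM and then 37 and 37.3 FPKM. These PIF genes rose by 1.87 and 1.65, with adjusted p = 8.99e-09 and 4.17e-08. PIF1, PIF3, PIF4 and PIF5 were not called, and PIF3 had 17.9 and 16.6 FPKM at 1 h and 9.89 and 10.8 FPKM at 3 h.

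Of 16 tested PIF and shade targets, none rose and 3 fell, with a median of −0.61, and without 1 h replicate B 6 fell. HFR1, a helix-loop-helix protein that sequesters PIFs, had 92.6 and 85.1 FPKM at 1 h and 18.4 and 22 FPKM at 3 h. It fell 4.25-fold (−2.09 ± 0.1 SE, adjusted p = 3.64e-12). PAR2 and XTH15 also fell, by 1.12 and by 1.32. PAR2 was not called without 3 h replicate A (−0.96) and XTH15 not without 1 h replicate A (−0.86, adjusted p = 0.0827).

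Many clock genes fell. The circadian clock of plants is a loop of morning MYB factors (CCA1, LHY), pseudo-response regulators (PRR9 to TOC1) and the evening complex (ELF3, ELF4, LUX), and light resets it at first exposure. Of 23 clock genes, none rose and 12 fell, none had a change above 0, and the median was −1.17 against 0.02 over all genes. Without the minimum change, 21 of the 23 were lower at an adjusted p under 0.05, as were 21.5% of all genes.

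PRR9, a light-induced repressor of the morning genes, had 28.7 and 25.2 FPKM at 1 h and 2.17 and 1.69 FPKM at 3 h. It fell 9.57-fold (−3.26 ± 0.122 SE, adjusted p = 1.83e-13), and 31.2% of its 50-nt stretches also occur in another gene. ELF4, a subunit of the evening complex, had 223 and 178 FPKM and then 17.9 and 22.9 FPKM, a fall of 3.23 ± 0.172 (SE). The 1 h values of both genes lay about an order of magnitude above the 3 h values in each library.

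TOC1, the evening pseudo-response regulator, had 80.6 and 67.8 FPKM at 1 h and 13.3 and 14.5 FPKM at 3 h, and fell by 2.33. BOA, a relative of LUX, had 43 and 29.2 FPKM and then 1.46 and 2.33 FPKM, and fell by 3.67. Another annotated gene overlaps 45.9% of BOA, which makes its value uncertain, since it is not known whether counting was by strand. CCA1 had 141 and 190 FPKM at 1 h and 44 and 38.9 FPKM at 3 h, and LHY had 202 and 332 FPKM and then 85.8 and 89.6 FPKM. These morning MYB genes fell by 1.96 and 1.55, and their change did not differ detectably between tissues (differences of −0.33, adjusted p = 0.374, and −0.38, adjusted p = 0.527).

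In hypocotyls, where 7.23% of all genes rose and 4.31% fell, 8 clock genes fell, with a median of −0.57. The change differed between tissues in 6 of the 23 genes, each with the lower change in cotyledons, as in 8.71% of all genes. Among these was ELF4, with −3.23 in cotyledons and −0.52 in hypocotyls. GI, a clock and flowering protein, was another, with −1.57 in cotyledons and 0.02 in hypocotyls.

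The 250 bases before the transcription start were searched for 7 known motifs on both strands, and the promoters of genes that carry the results are shown with each match in capitals. The motifs were the G-box CACGTG, the evening element AAAATATCT, the CCA1 site AAAAATCT, the I-box GATAAG, the telo-box AAACCCTA, the site II element TGGGCC or TGGGCT, and the E2F site TTTCCCGC or TTTGGCGC. No motif is contained in another. The promoter of BOA (chr5:24003638-24003887, plus strand, TAIR10.1) is shown as the clock gene with the deepest fall. It holds a G-box 87 bases before the start, an I-box at 106, an evening element on the other strand at 43 and a site II match on the other strand at 222.
BOA: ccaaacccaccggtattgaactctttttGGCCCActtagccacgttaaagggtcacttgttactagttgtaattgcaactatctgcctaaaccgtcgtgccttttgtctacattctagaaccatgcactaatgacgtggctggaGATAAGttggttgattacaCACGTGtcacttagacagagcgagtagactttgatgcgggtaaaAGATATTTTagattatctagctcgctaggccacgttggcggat
Of the 23 clock promoters, 9 held a G-box (39.1%) and 5 an evening element (21.7%). The shares over all 17646 tested nuclear coding genes with a promoter were 7.46% and 2.47%. Among the 806 nuclear coding genes that fell, 13% held a G-box and 3.85% an evening element, and among the 987 that rose 6.69% and 3.04%. A match is a description of the letters and not a site shown to be bound.

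**Figure D1:**
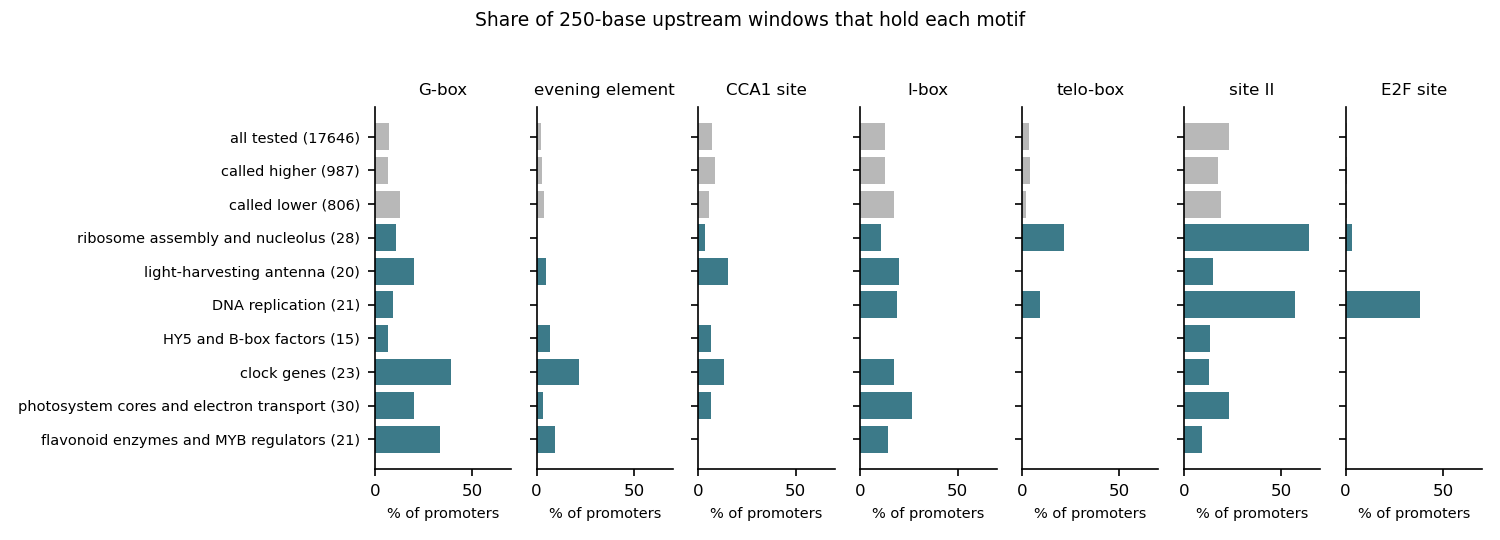
Bars give the share (%, from 0) of promoters, 250 bases long, that hold each of 7 motifs, for all tested genes and for genes that rose or fell in cotyledons from 1 h to 3 h. The G-box share is 13% among genes that fell, 6.69% among those that rose and 7.46% overall.

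Of the factors that direct plastid gene expression and greening, a few fell. SIG5, a sigma factor that guides plastid RNA polymerase and responds to blue light and stress, had 179 and 181 FPKM at 1 h and 69 and 74.8 FPKM at 3 h. It fell by 1.32 ± 0.134 (SE, adjusted p = 1.41e-07) in cotyledons, against a change of 0.34 in hypocotyls (difference −1.66, adjusted p = 9.49e-07). GLK2, a transcription factor for chloroplast genes, had 367 and 356 FPKM and then 172 and 144 FPKM, and GNC, a GATA factor of greening, had 123 and 126 FPKM and then 56 and 56 FPKM. Both fell, by 1.19 and 1.14. GLK1, the partner of GLK2, had 55.9 and 60.5 FPKM at 1 h and 121 and 101 FPKM at 3 h. Its change of 0.91 was not called, but reached 1.04 without 3 h replicate B.

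Of 10 greening regulators and sigma factors, 0 rose and 3 fell, with a median of 0.33. Of 15 members of the plastid transcription complex, 3 rose (MRL7-L, FLN2 and TRXZ, by 1.24, 1.03 and 1.01) and none fell. Only 1 of these 3 was called under quantile normalization, without 1 h replicate A or without 3 h replicate A.

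**Figure D2:**
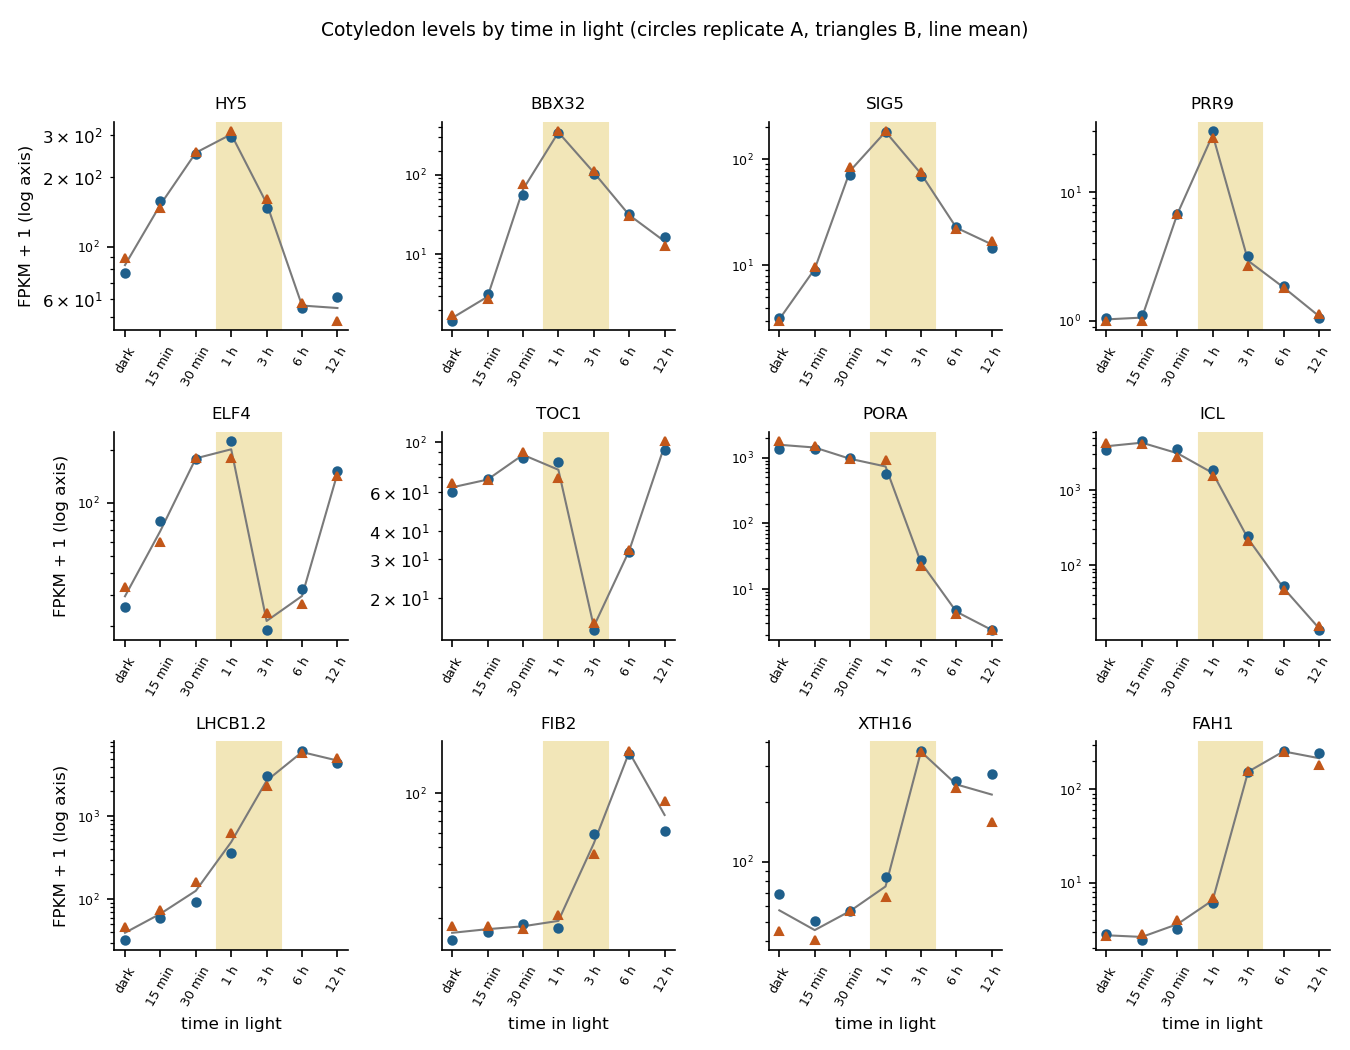
FPKM + 1 (log axis) of 12 genes in cotyledons in darkness and at 6 times in light. Circles are replicate A, triangles replicate B, the line is the mean, and the shaded band spans 1 h to 3 h. HY5, BBX32, SIG5 and the clock genes lie lower at 3 h than at 1 h, PORA and ICL lie lower still at 6 h, and LHCB1.2, FIB2, XTH16 and FAH1 lie higher at 3 h.

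Many nuclear genes for photosynthesis rose. Light-harvesting antenna proteins bind chlorophyll and pass energy to the photosystems. Of 20 antenna genes, 10 rose and none fell, each had a change above 0, and the median was 1.00. LHCB1.4, an antenna protein of photosystem II, had 48.9 and 87 FPKM at 1 h and 633 and 453 FPKM at 3 h. It rose 8.09-fold (3.02 ± 0.52 SE, adjusted p = 0.000237), the largest change in the list. LHCB1.2 had 357 and 623 FPKM and then 3086 and 2308 FPKM, and LHCB1.1 had 551 and 823 FPKM and then 3097 and 2501 FPKM. They rose by 2.50 and 2.04. LHCB1 genes are near copies, and 13.7%, 10.6% and 20.5% of the 50-nt stretches of these 3 occur elsewhere, so reads may have been split among them. The largest single antenna level was that of LHCB1.3, with 3334 and 4485 FPKM at 1 h and 9114 and 7422 FPKM at 3 h.

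The promoter of LHCB1.4 (chr2:14524357-14524606, plus strand, TAIR10.1) is shown as that of the antenna gene with the largest change. It holds a CCA1 site, in capitals, 18 bases before the start.
LHCB1.4: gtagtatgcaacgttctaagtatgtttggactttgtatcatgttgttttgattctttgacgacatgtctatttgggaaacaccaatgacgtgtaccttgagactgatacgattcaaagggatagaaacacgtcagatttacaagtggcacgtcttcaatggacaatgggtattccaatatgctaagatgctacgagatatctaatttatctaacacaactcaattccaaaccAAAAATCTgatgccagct
Of the 20 antenna promoters, 15% held a CCA1 site, 20% a G-box and 20% an I-box, where the shares over all genes were 6.95%, 7.46% and 12.5%.

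Of 30 nuclear genes of photosystem cores and electron transport, 9 rose and none fell, and 30 lay above 0 with a median of 0.91. PSAH2, a photosystem I subunit at the antenna docking site, had 771 and 1073 FPKM at 1 h and 2536 and 2244 FPKM at 3 h, a rise of 1.39 ± 0.141 (SE). PSAE-1 and PSAN, also of photosystem I, rose by 1.25 and 1.24. Many members sat close to the required change, so 29 of the 30 were higher at an adjusted p under 0.05 without a minimum change, beside 25.1% of all genes. Of 19 Calvin cycle genes 7 rose and none fell (median 0.83), and of 12 photorespiration genes 2 rose and none fell (median 0.77).

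FBA1, a plastid aldolase, had 339 and 515 FPKM at 1 h and 1283 and 1090 FPKM at 3 h, and RBCS1B, a small subunit of Rubisco, had 817 and 1340 FPKM and then 3497 and 2501 FPKM. Both rose by 1.5. The photorespiration genes called were GLDP1 and GLDP2, subunits of glycine decarboxylase, at 1.13 and 1.03.

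How many photosynthesis genes pass depends on the scaling and on single libraries, while the median of each list stayed above 0 in the settings run. Under quantile normalization 3 antenna, 1 photosystem, 2 Calvin cycle and 0 photorespiration genes were called, with medians of 0.75, 0.50 and 0.53 for the first 3 lists. Without 1 h replicate A, 5 antenna, 3 photosystem and 0 photorespiration genes were called. Without 1 h replicate B, 17 photosystem, 11 Calvin cycle and 4 photorespiration genes were. Without 3 h replicate A, 6 antenna genes and 1 photorespiration gene were called, and without 3 h replicate B 14 photosystem and 4 photorespiration genes passed.

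The same lists changed more in hypocotyls. There 18 of 20 antenna genes, 28 of 30 photosystem genes, 17 of 19 Calvin cycle genes and 10 of 12 photorespiration genes rose, with medians of 1.99, 1.85, 2.42 and 2.06. The difference between tissues was called in 10, 15, 13 and 9 of them, each with the lower change in cotyledons. FBA1 shows it: its change was 1.5 in cotyledons and 3.02 in hypocotyls (difference −1.53, adjusted p = 4.84e-05). For LHCB1.4 no difference was called, with 3.02 in cotyledons and 2.97 in hypocotyls (difference 0.05, adjusted p = 0.97). The levels were far apart: in hypocotyls FBA1 had 2.51 and 3.55 FPKM at 1 h and 32.2 and 30.9 FPKM at 3 h, and LHCB1.4 had 1.78 and 2.05 FPKM and then 18.5 and 25.7 FPKM.

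A few photoprotective genes rose. ELIP1, an early light-inducible protein that binds free chlorophyll, had 1776 and 2809 FPKM at 1 h and 9916 and 9097 FPKM at 3 h. It rose 4.25-fold (2.09 ± 0.391 SE, adjusted p = 0.000431), and its mean in darkness was 28.1 FPKM. ELIP2 rose by 1.54, and NPQ4, the PsbS protein needed for heat dissipation, rose by 1.07. Of 10 tested genes, 3 rose and none fell (median 0.72), and 5 rose without 1 h replicate B. NPQ4 lost its call under quantile normalization (0.90) and without 1 h (0.95) or 3 h (0.98) replicate A.

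In chlorophyll synthesis the protochlorophyllide reductases stood apart. These enzymes carry out the light-driven step of the pathway, and PORA and PORB are the forms that accumulate in darkness. PORA had 556 and 909 FPKM at 1 h and 27.1 and 21.7 FPKM at 3 h, the deepest fall of a coding gene of the nucleus with 500 nt of exons or more (28.2-fold, −4.82 ± 0.204 SE, adjusted p = 1.15e-12). PORB had 1156 and 1539 FPKM and then 131 and 103 FPKM, a fall of 3.51 ± 0.161 (SE). PORC, the light-grown form, had 97.5 and 125 FPKM at 1 h and 209 and 184 FPKM at 3 h, a change of 0.82 that was not called. By 6 h the means were 3.52 FPKM for PORA, 315 FPKM for PORB and 244 FPKM for PORC.

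PORA and PORB were the 2 of 25 genes of chlorophyll synthesis that fell, and none rose (median 0.29). Without 1 h replicate B 2 rose. HEMA1, which makes the first committed intermediate, had 358 and 466 FPKM at 1 h and 520 and 492 FPKM at 3 h (0.31, adjusted p = 0.079). In hypocotyls 12 of these genes rose and 1 fell. Of 20 carotenoid and plastid isoprenoid genes, 1 rose, LUT5, a carotene hydroxylase, at 1.09. LUT5 was not called under quantile normalization (0.91) or without 1 h replicate A (0.79).

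Many flavonoid genes rose. Flavonoids, anthocyanins and sinapate esters absorb ultraviolet and excess visible light in the epidermis. Of 21 flavonoid enzymes and MYB regulators, 13 rose and none fell, with a median of 1.98. MYB75, the anthocyanin regulator also called PAP1, had 9.66 and 16.4 FPKM at 1 h and 88.1 and 114 FPKM at 3 h, and rose 7.43-fold (2.89 ± 0.326 SE, adjusted p = 1.14e-06). GSTF12, a glutathione transferase needed to carry anthocyanin to the vacuole, had 0.561 and 3.32 FPKM and then 51 and 58.1 FPKM, and rose by 4.42. LDOX, an enzyme of the anthocyanin branch, had 0.103 and 0.13 FPKM and then 7.52 and 8.76 FPKM, and rose by 3.03. LDOX was thus near 0 at 1 h.

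CHS, chalcone synthase, the entry enzyme of the flavonoid pathway, had 162 and 293 FPKM at 1 h and 898 and 829 FPKM at 3 h (1.98 ± 0.518 SE, adjusted p = 0.00565). Its call was lost without 1 h replicate A (1.55, adjusted p = 0.0702) and in a fit of cotyledon libraries alone (adjusted p = 0.0625). In hypocotyls CHS rose by 5.14, more than in cotyledons (difference −3.16, adjusted p = 0.00304), while LDOX had a change of 0.15 there (difference 2.88, adjusted p = 4.67e-10). Over the list, the tissues differed in 17 genes, 9 with the larger change in cotyledons and 8 with the larger in hypocotyls. Of 21 flavonoid promoters, 7 held a G-box (33.3%).

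The 16 phenylpropanoid and sinapate genes were chosen after values were seen, and 9 of them rose. FAH1, ferulate 5-hydroxylase of the sinapate branch, had 5.11 and 5.97 FPKM at 1 h and 151 and 155 FPKM at 3 h. It rose 23.6-fold (4.56 ± 0.131 SE, adjusted p = 7.79e-15), and in hypocotyls it rose by 5.56. PAL1, phenylalanine ammonia-lyase at the head of the pathway, had 26.5 and 37.8 FPKM and then 187 and 196 FPKM, and rose by 2.56. 4CL1, CYP98A3, CCoAOMT1 and OMT1, enzymes between those steps, rose by 2.28, 2.26, 2.09 and 2.06. Other listed genes of the sinapate branch were not called: REF1 (0.30), SNG1 (0.25) and UGT84A2 (−0.27).

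**Figure D3:**
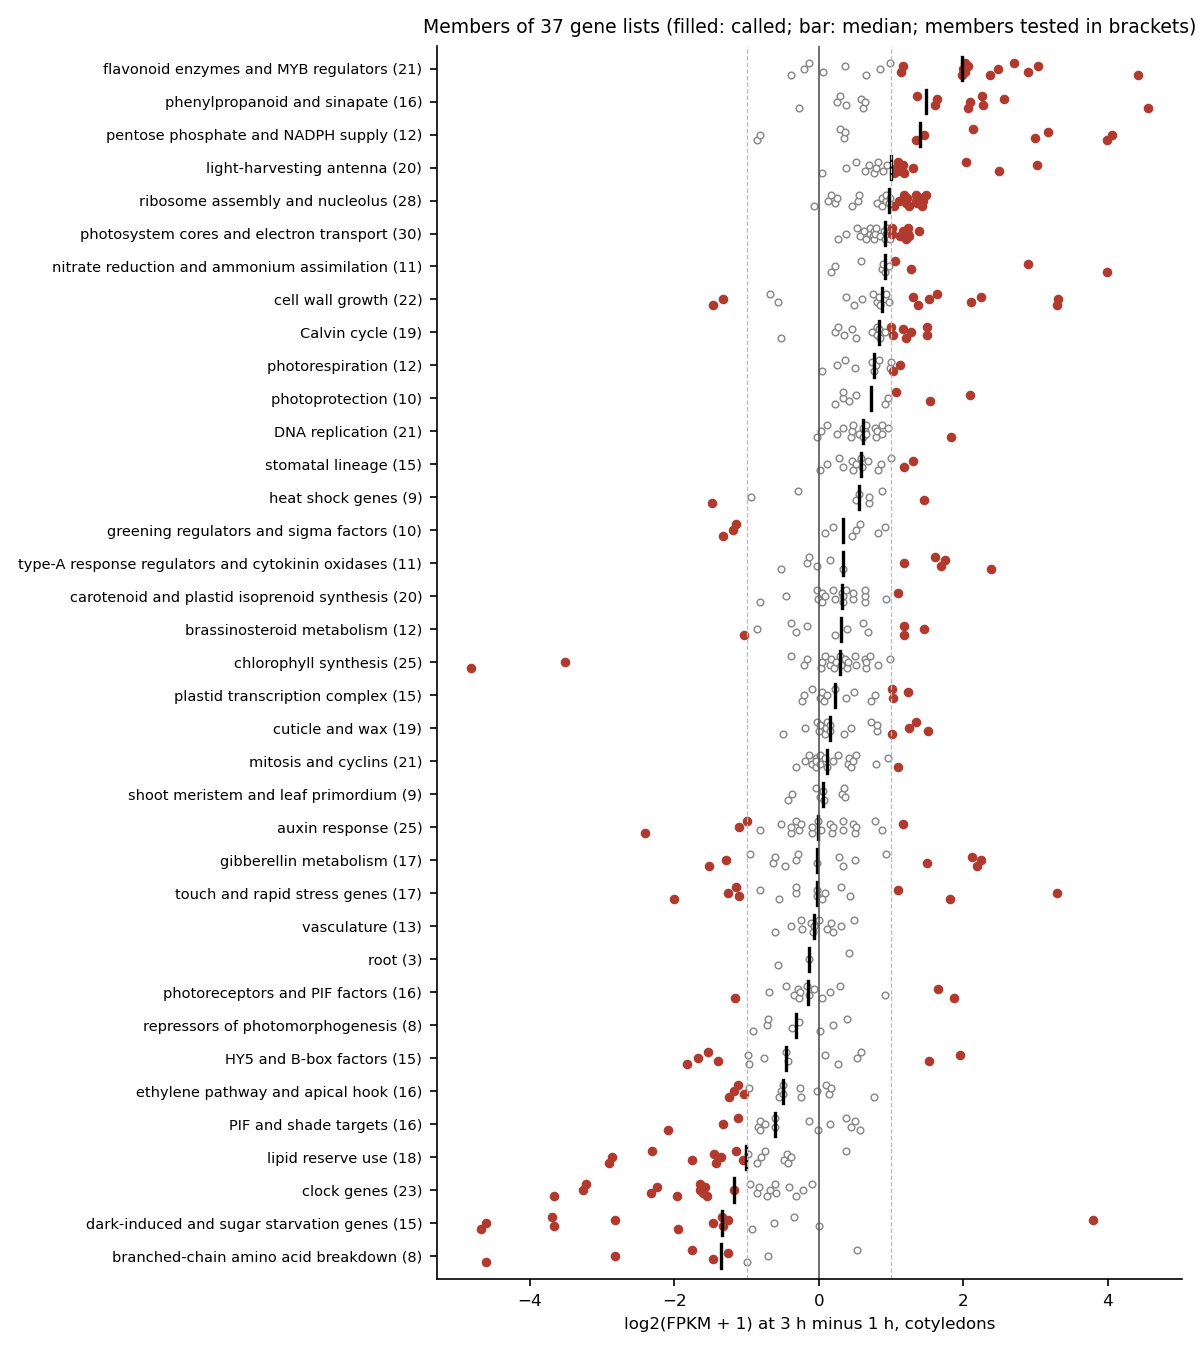
Log2 change, 3 h minus 1 h, of each tested member of the gene lists in cotyledons. Filled points are called, open points are not, and the bar is the median of the list, such as 1.98 for flavonoid genes and −1.17 for clock genes.

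Some genes of nitrite reduction and of the supply of reducing power rose. Nitrite reductase needs ferredoxin and sirohaem, and outside photosynthesis the oxidative pentose phosphate pathway supplies the NADPH that reduces ferredoxin. NIR1, nitrite reductase, had 99.8 and 114 FPKM at 1 h and 1003 and 633 FPKM at 3 h, and rose 7.41-fold (2.89 ± 0.197 SE, adjusted p = 9.34e-10). UPM1, the methyltransferase that starts sirohaem synthesis, had 32.8 and 39.1 FPKM and then 707 and 479 FPKM, a rise of 3.99 ± 0.173 (SE). Its mean was 73.2 FPKM in darkness and 112 FPKM at 6 h, and that of NIR1 was 310 FPKM at 6 h. Of 11 genes of nitrate reduction and ammonium assimilation, 4 rose and none fell (median 0.91), and 2 rose without 3 h replicate A.

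Of 12 genes of the pentose phosphate pathway and NADPH supply, a list chosen after values were seen, 7 rose and none fell (1 fell without 3 h replicate A). G6PD3, a plastid glucose-6-phosphate dehydrogenase, had 3.13 and 3.98 FPKM at 1 h and 91.5 and 61.2 FPKM at 3 h, and rose 16.7-fold (4.06 ± 0.194 SE, adjusted p = 3.64e-12). Its mean was 2.54 FPKM in darkness and 7.02 FPKM at 6 h. AT5G41670, annotated as a 6-phosphogluconate dehydrogenase, had 34.7 and 39.8 FPKM and then 769 and 479 FPKM, a rise of 3.99, with 48.7 FPKM at 6 h. The level of both genes was low on each side of 3 h.

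FD3, a ferredoxin of non-photosynthetic type, had 61 and 52.5 FPKM at 1 h and 600 and 446 FPKM at 3 h. RFNR2, a root-type ferredoxin reductase, had 8 and 9.88 FPKM and then 97 and 62.4 FPKM. They rose by 3.17 and 2.99, and their means at 6 h were 61.9 and 5.47 FPKM. The cytosolic dehydrogenase G6PD5 had 15.4 and 15 FPKM at 1 h and 7.85 and 8.65 FPKM at 3 h, a change of −0.81 that was not called, and G6PD4 had a change of −0.86 that was not called. Both were below 0 by adjusted p alone (1.29e-05 and 4.70e-05). In hypocotyls FD3 and RFNR2 had changes of −0.09 and 0.39, and the tissues differed by 3.26 (adjusted p = 1.45e-10) and 2.61 (adjusted p = 2.76e-07). G6PD3 and UPM1 had changes of 0.71 and 0.64 there, with differences of 3.36 and 3.35. Other differences lay below 0: G6PD1 rose by 2.03 in hypocotyls and had 0.35 in cotyledons (difference −1.67, adjusted p = 5.26e-08), and G6PD5 had 0.55 in hypocotyls (difference −1.37, adjusted p = 2.12e-06). Of the 12 genes of the pentose phosphate list, 7 had called differences above 0 and 2 below. NIR1 also rose in hypocotyls, by 1.23 (difference 1.66). Of the 11 nitrate genes 6 rose there, with a median of 1.23, and of the called differences 2 lay above and 4 below 0.

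**Figure D4:**
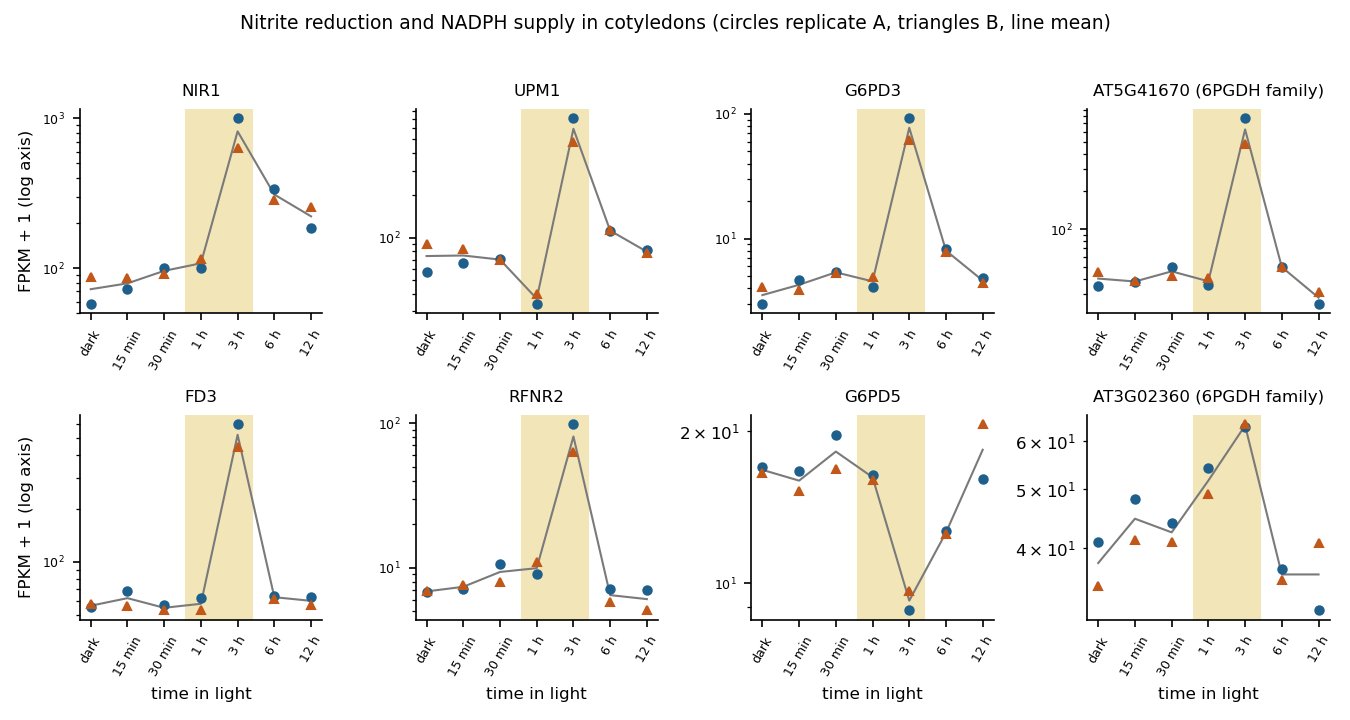
FPKM + 1 (log axis) of 8 genes of nitrite reduction and NADPH supply in cotyledons at 7 times. Circles are replicate A, triangles replicate B and the line is the mean. NIR1, UPM1, G6PD3, AT5G41670, FD3 and RFNR2 are highest at 3 h, and G6PD5 is lowest there.

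Many genes of oil use and of starvation fell. Dark-grown cotyledons burn stored oil through peroxisomal beta-oxidation, the glyoxylate cycle and gluconeogenesis. Of 18 such genes, none rose and 9 fell, and 1 lay above 0 (median −1.01). ICL, isocitrate lyase of the glyoxylate cycle, had 1863 and 1526 FPKM at 1 h and 241 and 208 FPKM at 3 h, and fell 7.49-fold (−2.91 ± 0.187 SE, adjusted p = 3.23e-10). MLS, malate synthase of the same cycle, had 112 and 114 FPKM and then 25.6 and 18.9 FPKM. PCK1, a kinase that commits carbon to sugar, had 451 and 386 FPKM and then 57.8 and 54.2 FPKM. These 2 fell by 2.31 and by 2.87, so that each step held a fraction of its 1 h transcript level in both 3 h libraries.

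ICL had been at a mean of 3852 FPKM in darkness and was at 48.7 FPKM at 6 h. The beta-oxidation genes that fell, ACX1, ACX2, ACX4, PED1 and LACS7, changed less, from −1.05 (LACS7) to −1.45 (ACX2), and CSY3, a peroxisomal citrate synthase, fell by 1.75. In hypocotyls none of the 18 fell and 1 rose. The tissues differed in 10 of them, each with the lower change in cotyledons, as for ICL (difference −2.68, adjusted p = 1.78e-07), which had 51.9 and 37.3 FPKM and then 33.7 and 42 FPKM in hypocotyls.

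Of 15 dark-induced and sugar-starvation genes, 10 fell and 1 rose (median −1.34). SEN1, a senescence-associated gene, had 241 and 158 FPKM at 1 h and 6.06 and 7.26 FPKM at 3 h, and fell 25.7-fold (−4.68 ± 0.277 SE, adjusted p = 7.53e-10). ASN1, asparagine synthetase, had 47.3 and 19.5 FPKM and then 1.23 and 1.67 FPKM, a fall of 3.69 that was as deep in hypocotyls (−3.54, difference −0.15, adjusted p = 0.837). GDH2, glutamate dehydrogenase, had 118 and 72.1 FPKM and then 5.78 and 7 FPKM, and fell by 3.66. For all 3 genes 1 h replicate A lay above replicate B, and the 3 h libraries were alike.

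The gene of this list that rose was EXL1, annotated as a phosphate-responsive 1 family protein. It had 1.27 and 1.12 FPKM at 1 h and 26.8 and 31.9 FPKM at 3 h (3.79), and it entered the list as a gene of carbon starvation. Branched-chain amino acid breakdown, a list of 8 genes chosen after values were seen and sharing 3 with the dark-induced list, held 5 genes that fell and none that rose. BCAT-2, the transaminase that starts it, had 70.9 and 34.4 FPKM at 1 h and 1.05 and 1.1 FPKM at 3 h, a fall of 4.61. MCCA, a subunit of methylcrotonyl-CoA carboxylase in leucine breakdown, had 36 and 21.5 FPKM and then 3.16 and 2.98 FPKM.

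Many genes for making ribosomes rose in cotyledons. Fibrillarin, NOP56 and NHP2 belong to particles that modify ribosomal RNA in the nucleolus. Of 28 tested genes of ribosome assembly, 13 rose and none fell, 27 lay above 0 and the median was 0.97. NHP2 had 62.2 and 66.1 FPKM at 1 h and 176 and 189 FPKM at 3 h, a rise of 1.49 ± 0.108 (SE, adjusted p = 1.47e-09). FIB2, a fibrillarin, had 16.6 and 19.9 FPKM and then 58.2 and 44.5 FPKM, a rise of 1.43, and reached a mean of 169 FPKM at 6 h. BRX1-2, needed for the large subunit, rose by 1.44. In hypocotyls none of the 28 was called (0 higher, 0 lower, median 0.03), and the difference between tissues was called in 12, each higher in cotyledons. For FIB2 this difference was 1.78 (adjusted p = 1.30e-06).

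NOP56 had 21.9 and 26.9 FPKM at 1 h and 70 and 57.5 FPKM at 3 h (1.35 ± 0.134 SE). Its promoter (chr1:20986953-20987202, minus strand, TAIR10.1) was chosen for its motif matches: site II elements 126, 81 and, on the other strand, 74 bases before the start, and a telo-box at 17.
NOP56: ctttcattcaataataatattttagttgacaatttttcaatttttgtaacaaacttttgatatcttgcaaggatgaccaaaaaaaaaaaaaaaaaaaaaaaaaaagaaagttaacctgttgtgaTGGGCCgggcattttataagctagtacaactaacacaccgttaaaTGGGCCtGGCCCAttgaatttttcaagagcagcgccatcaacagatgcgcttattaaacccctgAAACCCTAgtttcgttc
Of the 28 promoters of this list, 18 held a site II element (64.3%) and 6 a telo-box (21.4%), where the shares over all genes were 23.2% and 3.55%. The promoter of NHP2, the member with the largest rise, held no match to the 7 motifs. Over all genes that rose, 17.4% held a site II element.

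Cell division genes moved little by comparison. Of 21 tested DNA replication genes 1 rose, though 20 lay above 0 and 15 were higher at an adjusted p under 0.05 without a minimum change (median 0.61). RNR2A, a subunit of ribonucleotide reductase that makes DNA precursors, was the one called, with 6.79 and 8.74 FPKM at 1 h and 30.9 and 29.1 FPKM at 3 h (1.83 ± 0.158 SE, adjusted p = 1.55e-08). A pseudocount of 0.1 FPKM gave 3 such genes, and leaving out 1 h replicate B or 3 h replicate A gave 2. Of 21 mitosis genes and cyclins 1 rose, CYCD3;1, a cyclin of the step before DNA replication, at 1.09 (1.00 and not called without 1 h replicate A). KN, the syntaxin of the dividing cell plate, had 30.1 and 29.2 FPKM at 1 h and 29.8 and 30.1 FPKM at 3 h.

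The promoter of RNR2A (chr3:8459588-8459837, plus strand, TAIR10.1) is shown as that of the replication gene with the largest rise. It held a G-box 78 bases before the start and no E2F or site II match.
RNR2A: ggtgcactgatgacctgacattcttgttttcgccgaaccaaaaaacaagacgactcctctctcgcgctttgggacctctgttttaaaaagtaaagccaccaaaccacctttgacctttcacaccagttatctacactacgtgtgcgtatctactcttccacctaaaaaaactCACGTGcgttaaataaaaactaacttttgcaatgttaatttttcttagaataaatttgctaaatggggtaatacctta
Of the 21 replication promoters, 8 held an E2F site (38.1%) and 12 a site II element (57.1%), where the share of E2F sites over all genes was 0.992%.

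More cell wall genes rose than fell in cotyledons, and more fell than rose in hypocotyls. Expansins loosen the wall, and xyloglucan endotransglucosylases (XTH genes) cut and rejoin its tethers during growth. Of 22 tested genes 8 rose and 2 fell (1 without 1 h replicate A), with a median of 0.88, while in hypocotyls 3 rose and 9 fell (−0.74). The difference between tissues was called in 13, each higher in cotyledons. XTH16 had 82.5 and 66 FPKM at 1 h and 358 and 352 FPKM at 3 h, and rose 4.76-fold (2.25 ± 0.259 SE, adjusted p = 1.78e-06), against −0.33 in hypocotyls. EXPA1 had 140 and 148 FPKM and then 357 and 399 FPKM, a rise of 1.38, where hypocotyls had a fall of 2.58 (difference 3.96, adjusted p = 2.86e-11).

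XTH33 had 0.124 and 0.628 FPKM at 1 h and 11.1 and 13.8 FPKM at 3 h in cotyledons, a rise of 3.31, and 8.06 and 12.5 FPKM and then 0.707 and 0.799 FPKM in hypocotyls. TCH4, an XTH gene induced by touch, had 32.4 and 19.8 FPKM and then 243 and 274 FPKM, a rise of 3.3. In the list of 17 touch and rapid stress genes, which also holds TCH4, 3 rose and 4 fell. The 4 were DREB2A, ERF104, ZAT10 and ZAT12, transcription factors of stress responses, and DREB2A had 82.8 and 75.3 FPKM and then 17.7 and 20.2 FPKM (−2.0). ERF104 was not called without 1 h replicate A (−0.91).

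Hormone genes were called in both directions. Of 11 tested type-A response regulators and cytokinin oxidases, 5 rose and none fell. ARR15 had 0.771 and 1.09 FPKM at 1 h and 7.55 and 10.7 FPKM at 3 h, and ARR7 had 11.7 and 13.8 FPKM and then 43 and 47.4 FPKM. These repressors of the cytokinin pathway, which cytokinin induces, rose by 2.38 and 1.75, and ARR4, ARR6 and ARR16 rose as well. In hypocotyls none of the 11 rose and 1 fell, and the tissues differed in 4. With a filter at 5 FPKM, 3 genes of the list rose, and ARR16 was not called when 0.1 FPKM was added in place of 1 FPKM (adjusted p = 0.0822).

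Of 17 tested gibberellin genes 4 rose and 2 fell. GA3OX1, which makes active gibberellin, had 1.02 and 1.98 FPKM at 1 h and 12.7 and 8.19 FPKM at 3 h (2.19), and GA3OX2 rose by 2.12. GA2OX8, an oxidase that inactivates gibberellin precursors, also rose (2.24), from 0.366 and 0.154 FPKM to 5.48 and 4.4 FPKM. Both synthesis and breakdown genes were thus among those that rose. Of 12 brassinosteroid genes 3 rose, BAS1, SOB7 and BEN1, which inactivate the hormone, at 1.45, 1.18 and 1.18. CPD, a synthesis enzyme, fell by 1.04, but not without replicate A of 1 h (−0.84) or of 3 h (−0.85).

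Of 25 tested auxin genes 1 rose and 3 fell, with a median of −0.01, where 5.47% of all genes rose and 4.79% fell. IAA20, an Aux/IAA protein, had 23.8 and 23.4 FPKM at 1 h and 3.82 and 3.51 FPKM at 3 h, a fall of 2.40. The others that fell, IAA1 and DFL2, were not called without 1 h replicate A (−0.78 and −0.90). Of 16 tested ethylene genes none rose and 4 fell. CTR1, the kinase that holds the pathway off, fell by 1.25 from 32.9 and 29 FPKM to 12.9 and 12 FPKM, and the receptor gene ERS1 and the synthesis gene ACO1 fell by 1.18 and 1.04. Genes of hormone synthesis and of signalling were thus both among those that fell.

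Of 15 stomatal lineage genes 2 rose and none fell, and 15 lay above 0 (median 0.59). BASL, a polarity protein of asymmetric division, had 3.01 and 3.48 FPKM at 1 h and 8.44 and 8.75 FPKM at 3 h (1.18). EPF2, a peptide that limits entry into the lineage, had 8.49 and 12.8 FPKM and then 25.9 and 28.5 FPKM (1.3), and was not called without 1 h replicate A (adjusted p = 0.0792) or when 0.1 FPKM was added in place of 1 FPKM (adjusted p = 0.0902). Without 3 h replicate A 4 lineage genes rose. Of 9 tested heat shock genes HSFA2, a heat stress factor, rose (1.45) and HSP22 fell (−1.48) from 2.16 and 3.34 FPKM to 0.198 and 0.472 FPKM. Of 19 tested cuticle and wax genes, chosen after values were seen, 4 rose and none fell, among them CER3, needed for wax alkanes, from 101 and 96.3 FPKM to 241 and 268 FPKM.

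The 8 largest rises among coding genes of the nucleus with 500 nt of exons or more were led by AT1G23205, annotated as a pectin methylesterase inhibitor. It had 1.08 and 2.68 FPKM at 1 h and 72.9 and 76 FPKM at 3 h (4.77 ± 0.184 SE, adjusted p = 2.70e-13). AT5G62210, annotated as an embryo-specific protein, had 2.07 and 7.32 FPKM and then 95.1 and 88.9 FPKM (4.2). AT4G25707 was listed at 0 in both 1 h libraries and had 33.8 and 20.2 FPKM at 3 h, but replicate B at 12 h was also listed at 0, and it was not called in a fit of cotyledon libraries alone (adjusted p = 0.0741) or without replicate A of either time (adjusted p = 0.0131 with both, 0.0565 without that of 1 h and 0.072 without that of 3 h). The other 5 were FAH1, GSTF12, G6PD3, AT5G41670 and UPM1, described above.

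The 8 deepest falls were PORA, SEN1, BCAT-2, AT2G33830, AT3G15534, AT2G34020, ASN1 and BOA. AT2G33830, annotated as a dormancy- and auxin-associated protein, had 185 and 93.8 FPKM at 1 h and 3.57 and 6.56 FPKM at 3 h, a fall of 4.5. AT2G34020, an annotated calcium-binding protein, had 28.3 and 22.2 FPKM and then 0.833 and 1.21 FPKM. AT3G15534 had 13.6 and 18.7 FPKM at 1 h and was listed at 0 in both 3 h libraries. Short and non-coding genes gave larger but less steady values: MIR157a was listed at 282 and 79.3 FPKM and then at 0, and AT2G43137 at 0 and then at 209 and 187 FPKM. MIR157a was not called without 1 h replicate A (adjusted p = 0.114) or without replicate A (0.0724) or B (0.0704) of 3 h. AT2G43137 was not called in a fit of cotyledon libraries alone (adjusted p = 0.082). Of 458 nuclear genes under 500 nt, 23 rose and 29 fell, close to the shares over all genes (5.47% and 4.79%). Of 113 organelle genes 0 rose and 2 fell.

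Many of these changes differed from those in hypocotyls. Of the 1021 genes that rose in cotyledons, 267 also rose in hypocotyls and 62 fell there, and the median change was 1.36 in cotyledons and 0.33 in hypocotyls. The difference between the tissues was called in the direction of the cotyledon change for 538 of them (52.7%), and for 435 it was not called. Of the 894 genes that fell, 157 also fell in hypocotyls and 20 rose there, and the difference was called in the cotyledon direction for 511 (57.2%). These genes were chosen by their cotyledon change, which also enters the difference, so that the shares are a description. Over all genes tested, the tissues differed in 3002 (16.1%), 1375 with the higher change in cotyledons (7.36%) and 1627 with the lower (8.71%).

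**Figure D5:**
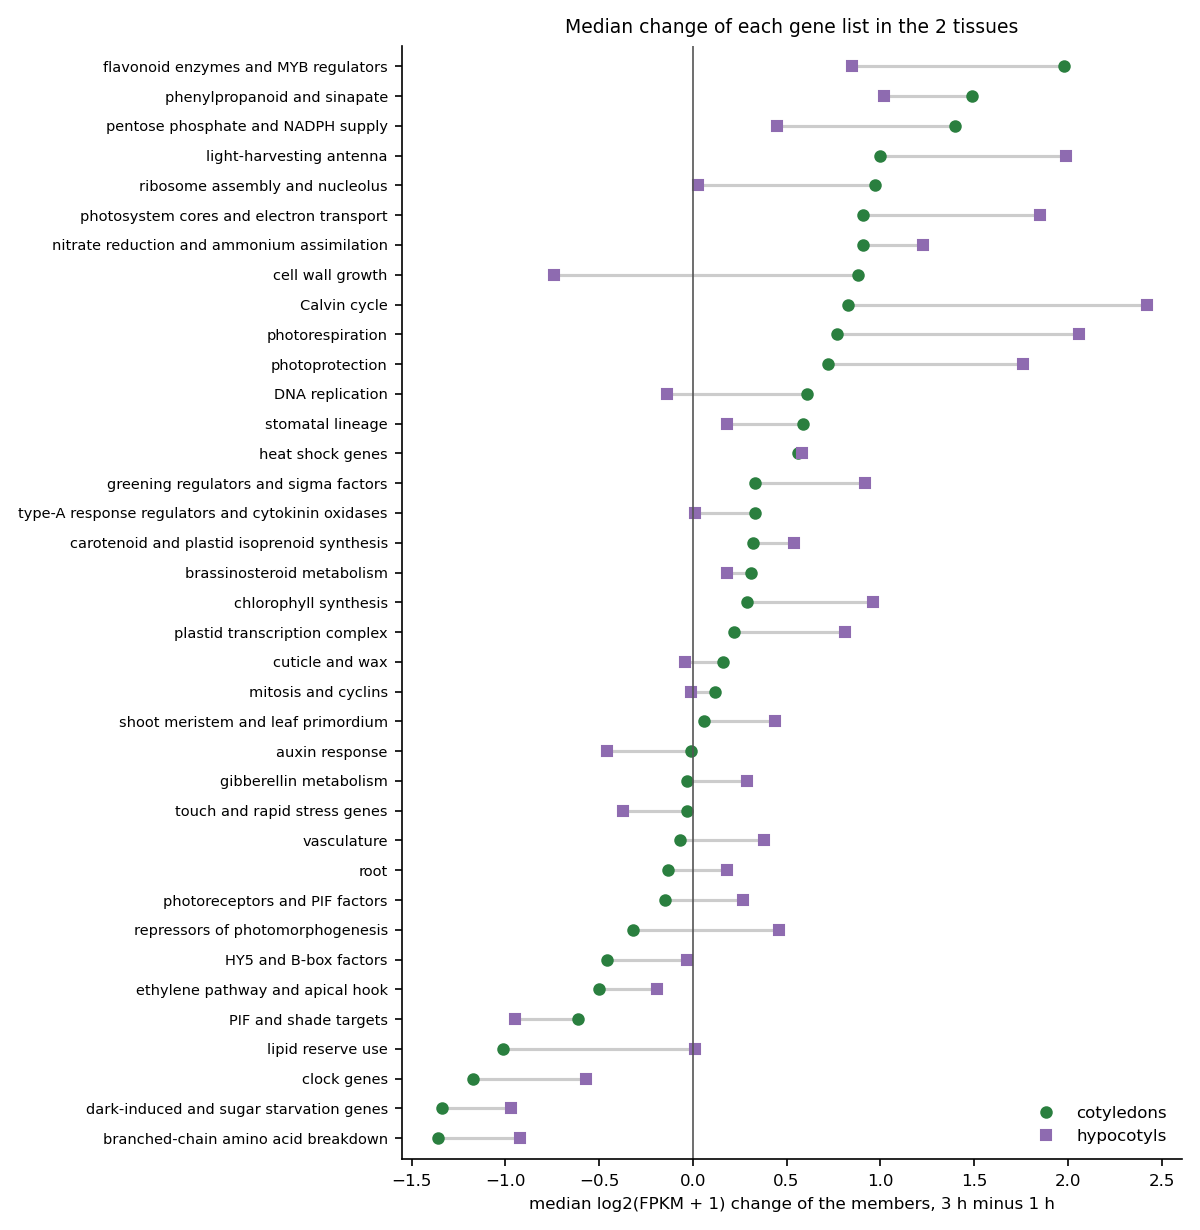
Median log2 change from 1 h to 3 h of each gene list in cotyledons (circles) and hypocotyls (squares). Photosynthesis lists lie further right in hypocotyls (antenna 1.99 against 1.00), while ribosome assembly (0.97 against 0.03) and cell wall genes (0.88 against −0.74) lie further right in cotyledons.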

How the data were processed

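FPKM for 33557 genes in 28 libraries were deposited by the authors, made with Cuffnorm per the submitters' processing notes. Those notes also name CASAVA 1.8.2, TopHat2 2.0.8, Cuffdiff 2.1.1 and the build TAIR10, whose role is not given. How Cuffnorm scaled the libraries and whether counting used strand are not given in the sources used here. Values of overlapping genes are therefore uncertain. The authors' table of Cuffdiff results compares light with darkness and was not used. Samples were grouped by the labelled tissue and time, with replicates A and B as biological replicates.

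Values were set to log2(FPKM + 1). A gene was tested if its mean over all libraries reached 1 FPKM (18678 genes). limma 3.58.1 (R 4.3.3, with statmod 1.5.0) fitted 1 mean per group for all 14 groups, leaving 14 residual degrees of freedom, with trended and robust eBayes, so that the spread was estimated from all groups. The contrasts were 3 h minus 1 h in cotyledons, the same in hypocotyls, and their difference, each adjusted by Benjamini-Hochberg over all genes tested. A call needs an adjusted p under 0.05 and a log2 change of at least 1. The fit was also tested on simulated data with known changes. Annotation and figures were made in Python 3.11.15 with matplotlib 3.10.9, numpy 2.4.6 and pandas 2.3.3. TAIR10.1 matched 32810 loci and left 747 unmatched, and gave positions, exon lengths, overlaps and the promoters. Read totals were not analysed here, and relative depth comes from the spacing of the lowest values.

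The comparison, the 34 gene lists (582 distinct genes, 538 tested) and the rule for named genes were chosen with earlier results of these data known. The rule took the 8 highest and 8 lowest called nuclear coding genes of at least 500 nt, up to 3 called members per list and direction, the 4 highest and 4 lowest tissue differences, and a few fixed genes. Apart from the fixed genes, the rule took only genes whose 1 h and 3 h cotyledon libraries did not overlap. Other list members are named as examples chosen after their values were seen, and so were 4 further lists and the gene families given at the end. Lists are described by counts and medians, with no test. Alternatives comprised another pseudocount, 2 filters, 2 scalings, other sets of libraries, other eBayes settings, a replicate block and leaving out each replicate in turn. The result of 1 gene is not reported here.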

Additional observations from a re-analysis of the deposited data

Results flagged for a closer look

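The change from 1 h to 3 h differed between cotyledons and hypocotyls in 3002 genes by limma's test of the difference itself. In coding genes of the nucleus with 500 nt of exons or more, the difference (cotyledon change minus hypocotyl change, log2 scale) was highest for the cell wall gene XTH33, at 5.97. GPAT3, annotated as a glycerol-3-phosphate acyltransferase, followed at 5.05: it had 4.35 and 3.59 FPKM at 1 h and 24.3 and 28.1 FPKM at 3 h in cotyledons, and 219 and 192 FPKM and then 35.7 and 30.7 FPKM in hypocotyls. BZIP34, a bZIP factor, stood at 4.53, with 3.57 and 3.31 FPKM and then 29.9 and 26.8 FPKM in cotyledons. WIH3, annotated as a cysteine-rich stress tolerance protein, stood at 4.5, mostly through hypocotyls, where it went from 17.4 and 15.1 FPKM to 1.12 and 0.944 FPKM. In these genes the tissues moved in opposite directions.

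At the other end stood CCL at −4.68, with 323 and 248 FPKM and then 77.4 and 61.9 FPKM in cotyledons and 3.1 and 3.24 FPKM and then 25.5 and 25.4 FPKM in hypocotyls. KIN1, a stress-responsive gene, stood at −4.44. DIR1, a lipid-transfer family gene, stood at −4.0: it rose from 206 and 227 FPKM to 1024 and 1051 FPKM in cotyledons and from 6.76 and 4.49 FPKM to 504 and 491 FPKM in hypocotyls. Another annotated gene overlaps all of DIR1, so its value is uncertain. PORA stood at −3.77, where hypocotyls had only 1.74 and 1.73 FPKM at 1 h.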

How the results depend on the processing

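The cotyledon counts stayed within 1.5 times under each alternative planned, from 842 to 1330 higher and 761 to 1316 lower, both extremes coming from the filter at 5 FPKM and the pseudocount of 0.1 FPKM. Leaving out 1 library gave 913 to 1271 higher and 816 to 1140 lower, with the lone replicate assumed to vary like the other groups. With no minimum change, an alternative chosen after seeing the data, 8697 genes differed in cotyledons (4689 higher, 4008 lower), 7280 in hypocotyls (4081 and 3199) and 7470 between tissues (3415 and 4055). The replicate letters are not shown to pair libraries: deviations of same-letter libraries at 1 h and 3 h correlated at 0.012. A replicate block gave 1020 higher and 893 lower and changed no call among the 113 genes named by the rule.

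Of these 113, 84 kept their call or lack of one under every alternative planned and none reversed. In 27 the call was lost under at least one, most often without 1 h replicate A (20 genes), without 3 h replicate A (10) or under quantile normalization (9), and HY5 and GLK1 gained one. Counts moved over 1.5 times in further lists: photoprotection, carotenoid, mitosis and greening lists held 5, 2, 2 and 1 higher genes without 1 h replicate B. With a pseudocount of 0.1 FPKM, 4 gibberellin, 2 brassinosteroid and 2 heat shock genes fell and 2 auxin genes rose. With a filter at 5 FPKM, 1 stomatal gene rose and 0 heat shock genes fell, and with no filter 1 seed storage gene fell. Without 1 h replicate A, 1 cell wall gene fell. The cause was not tested. Medians near 0 changed sign with the setting in the auxin (−0.17 to 0.11), gibberellin (−0.31 to 0.05), plastid transcription (−0.04 to 0.48), touch (−0.27 to 0.31), vasculature (−0.12 to 0.05) and shoot meristem (−0.02 to 0.33) lists. No scaling moved the median of all genes by over 0.1.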

Other observations

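Some gene families, grouped by annotation after values were seen, differed in their counts, beside 5.47% higher and 4.79% lower over all genes. Members of the lists were not left out of these families. Of 27 B-box and CONSTANS-like genes, 7 fell (25.9%) and 1 rose. Of 18 expansins 6 rose (33.3%) and none fell. GDSL lipases (10 of 45 higher, 22.2%), lipid transfer proteins (11 of 49, 22.4%) and pectin-modifying enzymes (13 of 92, 14.1%), which act at the cell surface, rose more often than they fell (2, 3 and 2 lower). SAUR genes, small auxin-induced genes, went both ways, with 14 of 60 higher (23.3%) and 8 lower (13.3%). Of 313 ribosomal protein genes 14 rose (4.47%) and 2 fell (0.639%), with a median of 0.50. Of 26 kinesins none was called (0 higher, 0 lower). Leucine-rich repeat proteins lay near the shares over all genes (5.88% higher, 5.15% lower). Cytochrome P450 genes (11.9% higher, 9.32% lower) and UDP-glycosyltransferases (10.8% higher, 9.8% lower) lay above both shares. Pentatricopeptide repeat proteins (2.6% higher, 2.08% lower) lay below both, and NAC factors had 2.04% higher and 10.2% lower.

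PGM, annotated as a phosphoglycerate mutase, had 2.38 and 2.85 FPKM at 1 h and 57.1 and 40.6 FPKM at 3 h (3.77, adjusted p = 6.12e-13 by limma), and a change of 0.41 in hypocotyls. CYP707A2, which breaks down abscisic acid, had 0.128 and 0.433 FPKM and then 17.4 and 14.3 FPKM (3.72). GBF3, a bZIP factor that binds G-boxes, had 87.2 and 87.2 FPKM at 1 h and 10 and 12.3 FPKM at 3 h (−2.86). NAP, a NAC factor of leaf senescence, had 31.3 and 39.6 FPKM and then 2.03 and 2.65 FPKM (−3.45). These genes were picked after their values were seen, from called genes already required to have no overlap between the times.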
